A study of Mus musculus with 6 samples.

Results

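The miRNAs described here are a fixed list of arms of the miR-99, miR-100 and miR-125 hairpins: mmu-miR-99a-5p, mmu-miR-99b-5p, mmu-miR-99b-3p, mmu-miR-100-5p, mmu-miR-125a-5p, mmu-miR-125a-3p, mmu-miR-125b-5p, mmu-miR-125b-1-3p and mmu-miR-125b-2-3p (the species prefix is left out from here on). They were taken by name and are 9 of the 1881 mouse miRNAs on the array. The array also carries miR-99a-3p and miR-100-3p, which are not on this list. Both were detected on no array and are given below with the cluster partners. The samples were type H ECs, endothelial cells with high CD31 and high endomucin (CD31hiEmcnhi), and type L ECs, low for both (CD31loEmcnlo), sorted from the bone marrow of wild type C57BL/6 mice aged 1 month, with 3 arrays of each and no treatment. The labels call the arrays biological replicates but do not say how many mice stand behind each one. The mice are male in the labels and female in the methods, and the labels add a culture of the sorted cells in dishes, which the array methods do not mention, so whether the profiled cells had been cultured is not settled.

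In vertebrates the miR-99 and miR-125 families lie in the same genomic clusters with a let-7 gene between them, an arrangement kept through animal evolution. A hairpin gives a duplex of which usually the guide strand is loaded into Argonaute and the other, the passenger strand, is mostly degraded. For these hairpins the 5p arm is generally the guide. MiR-99 and miR-100 are known for repressing components of the mTOR pathway, and miR-125b for its high levels in haematopoietic stem cells and its role in leukaemia and endothelial biology.

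All 9 members matched a mature sequence in RefSeq (build GRCm38.p6). The mature sequences are shown because the families are defined by them. Capitals mark the seed, bases 2 to 8, the stretch that leads pairing to targets.

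miR-99a-5p: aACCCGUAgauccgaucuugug
miR-100-5p: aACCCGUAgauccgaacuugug
miR-99b-5p: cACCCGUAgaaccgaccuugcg
miR-125a-5p: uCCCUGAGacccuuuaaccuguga
miR-125b-5p: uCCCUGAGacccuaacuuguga
miR-99b-3p: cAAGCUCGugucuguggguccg
miR-125a-3p: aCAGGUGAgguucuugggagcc
miR-125b-2-3p: aCAAGUCAgguucuugggaccu
miR-125b-1-3p: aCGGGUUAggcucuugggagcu

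The 5p arms fall into 2 seed groups, with 3 members sharing ACCCGUA and miR-125a-5p and miR-125b-5p sharing CCCUGAG. MiR-100-5p differs from miR-99a-5p at 1 base, U16A, counted from the 5′ end with the base of miR-99a-5p first. MiR-99b-5p differs from miR-99a-5p at A1C, U11A, U16C and U21C, all outside the seed. MiR-125a-5p and miR-125b-5p share their first 13 bases. The 3p arms of the miR-125 hairpins each have a seed of their own among the members.

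The hairpins lie in 3 clusters on the plus strand of GRCm38.p6. On chromosome 16, Mir99a, Mirlet7c-1 and Mir125b-2 span 77598936 to 77646343. On chromosome 9, Mir100, Mirlet7a-2 and Mir125b-1 span 41531425 to 41582002, inside the host gene Mir100hg. These clusters are 47.4 and 50.6 kb long. The cluster on chromosome 17, of Mir99b, Mirlet7e and Mir125a, is far more compact, at 692 bases from 17830188 to 17830879. Mature miR-125b-5p is encoded identically on chromosomes 9 and 16, so its signal cannot be divided between those clusters, while miR-125b-1-3p and miR-125b-2-3p each come from 1 of them.

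Each miRNA was read by 2 to 4 probes of different length, and its signal is the sum of the probe totals given by the scanner software. Each cell type had a slide of its own, scanned apart from the other, so in every comparison the cell type and the slide cannot be told apart. Between 263 and 281 miRNAs were detected on type H arrays and between 295 and 309 on type L arrays, and the number of arrays limits the precision. All 10 control features detected on every array had more signal in the type H scans, the log2 difference being 0.21 to 1.47. Across the 231 miRNAs detected on all 6 arrays, the correlation between arrays was 0.998 to 0.999 within a cell type and 0.928 to 0.943 between them, a description over miRNAs, which are not independent. Both arms of miR-126a, the defining endothelial miRNA, were detected on 0 of 6 arrays, as were all 6 listed haematopoietic miRNAs. Of 8 listed stromal miRNAs, 7 were detected on all 6 arrays. Before normalization the summed signal of the 8 was 903 to 1143 on type H arrays and 775 to 891 on type L arrays. The 8 did not move together. After quantile normalization their log2 differences (type H minus type L) ran from -0.68 for miR-218-5p to 1.21 for miR-145a-5p. MiR-199a-3p, the brightest of them, stood at 0.03, and its arrays overlapped between the cell types. The part of stromal cells in the values below was not tested, and with bulk RNA a change in the share of a cell type and a change in RNA per cell cannot be told apart.

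Of the 9 members, 7 were detected on all 6 arrays, miR-125b-2-3p on the 3 type L arrays and 0 type H arrays, and miR-125b-1-3p on none. After quantile normalization, miRNAs were kept if every array of either cell type detected them, and 8 members were among the 311 miRNAs tested with limma and Benjamini-Hochberg adjustment. Of these, 6 were lower in type H ECs, 1 was higher and 1, miR-99b-3p, did not pass the threshold of 0.05. The 6 include miR-125b-2-3p, which passed the filter through type L ECs alone. Most miRNAs on these arrays passed it as well: 86.8% of the 311 were called, 42.1% as lower and 44.7% as higher in type H ECs, so a count of 7 of 8 members called is near the background. After normalization the arrays of the cell types did not overlap for 7 of the 8 members and for 87.8% of the 311 miRNAs. The median change of the 8 members was -0.23 on the log2 scale (type H minus type L), and that of all tested miRNAs was 0.03. Over miRNAs detected on all 6 arrays the medians were -0.15 for 7 members and 0.11 for all 231.

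**Figure D1:**
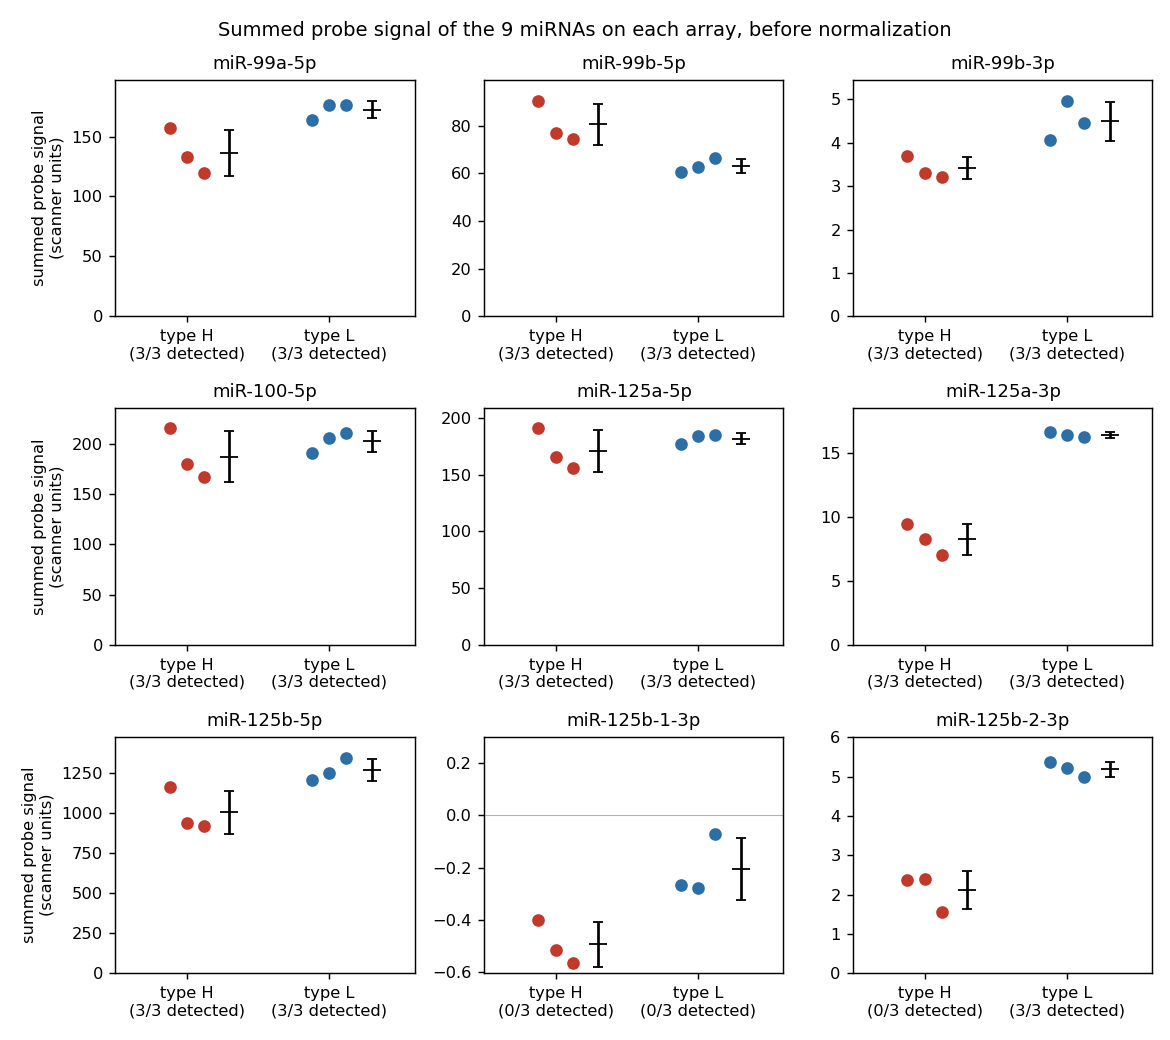
Summed probe signal (scanner units, linear axis) of each of the 9 miRNAs on the 3 type H and 3 type L arrays before normalization; points are arrays, the black dash and bars the mean ± SD (n = 3). The arrays of the cell types do not overlap for miR-99a-5p, miR-99b-5p, miR-99b-3p, miR-125a-3p, miR-125b-5p and miR-125b-2-3p, overlap for miR-100-5p and miR-125a-5p, and miR-125b-1-3p stayed below 0 on every array.

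Among the guide arms with the ACCCGUA seed, the members did not move in the same direction. MiR-99a-5p gave summed signals of 157.4, 132.7 and 119.7 on type H arrays 1 to 3, and of 164.1, 176.7 and 176.4 on type L arrays 1 to 3. All type H arrays lay below all type L arrays. After normalization its level was 7.07 ± 0.02 in type H ECs and 7.38 ± 0.05 in type L ECs (log2, SD, n = 3), a difference of -0.31 (SE 0.03, limma adjusted p = 0.00031).

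MiR-100-5p, its closest relative by sequence, gave signals of 215.2, 180.0 and 166.5 on the type H arrays and 190.7, 205.6 and 211.1 on the type L arrays. These values overlapped, since the first type H array exceeded each of the type L arrays. After normalization the groups parted, at 7.53 ± 0.02 against 7.67 ± 0.04 (log2, SD, n = 3), a difference of -0.15 (SE 0.03, limma adjusted p = 0.0063).

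MiR-99b-5p, from the compact cluster, went the other way. Its signals were 90.4, 76.9 and 74.4 on the type H arrays against 60.5, 62.8 and 66.3 on the type L arrays, with every type H array above every type L array. The normalized levels were 6.23 ± 0.03 and 6.00 ± 0.04 (log2, SD, n = 3), a rise of 0.23 in type H ECs (SE 0.03, limma adjusted p = 0.00097). It was the only member called higher in this fit.

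Both guide arms with the CCCUGAG seed were lower in type H ECs. MiR-125b-5p had signals of 1156.9, 932.8 and 918.5 on the type H arrays and 1203.9, 1248.4 and 1340.4 on the type L arrays, and the groups did not overlap. It fell by 0.40 on the log2 scale (SE 0.02, limma adjusted p = 2.0e-05). Its normalized value was 9.95 throughout type H and 10.36 throughout type L, because quantile normalization gives the same value to the same rank. An SD of 0 of this kind understates the spread, which the signals before normalization show, with means of 1003 ± 134 and 1264 ± 69.6 (SD, n = 3). The SE and adjusted p of miR-125b-5p therefore do not measure the spread of its own arrays.

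MiR-125a-5p had signals of 191.0, 165.1 and 155.7 on the type H arrays and 176.6, 183.9 and 184.6 on the type L arrays. Type H array 1 was again above all type L arrays, so the signals overlapped. The normalized difference of -0.10 (SE 0.03, limma adjusted p = 0.020) was the smallest among the called members. Its adjusted p in limma became 0.060 without type H array 1, 0.051 without type H array 3 and 0.056 without type L array 2. Its normalized value was 7.435 on every type H array, so leaving out a type H array kept the difference at -0.10 and changed only the SE. Those fits therefore do not show that a single type H array carries the call.

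The passenger arms were dim, at a few scanner units. MiR-125a-3p gave 9.43, 8.24 and 7.03 on the type H arrays and 16.6, 16.4 and 16.2 on the type L arrays. The groups stood well apart, with means of 8.23 ± 1.20 and 16.4 ± 0.22 (SD, n = 3). After normalization it fell by 0.68 on the log2 scale (SE 0.04, limma adjusted p = 2.7e-05).

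MiR-125b-2-3p, the passenger arm of the chromosome 16 cluster, gave 2.39, 2.40 and 1.56 on the type H arrays, where it was not detected, and 5.36, 5.21 and 4.98 on the type L arrays, where it was detected on all 3. It was tested only because type L ECs detected it, so its call is partly set by the filter and is not read as support. Type H ECs have only a bound, the higher of the miRNA's own signal and the lowest detected signal on each array, and against it the quantile-normalized level was at least 1.96-fold higher in type L ECs (limma adjusted p = 0.00085). The own signal was the higher on all type H arrays, so the bound equals the fitted fold. It holds for this fit only and is not a lower limit over other settings. The size depended on the values used, with a log2 difference of -0.86 without type H array 3, -0.53 with the brightest probe alone and -0.16 with a floor of 4. MiR-125b-1-3p, the corresponding arm of the chromosome 9 cluster, had sums between -0.56 and -0.07 on the 6 arrays and was not tested.

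MiR-99b-3p gave 3.70, 3.31 and 3.21 on the type H arrays and 4.07, 4.95 and 4.44 on the type L arrays. Before normalization all type H arrays lay below all type L arrays. After it the groups overlapped and the difference was 0.08 (SE 0.09, limma adjusted p = 0.43). Its direction therefore depends on the scaling. It depends on the probes as well, since with quantile normalization the brightest probe alone gave 0.44 (limma adjusted p = 0.0017).

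Before normalization, 5 of the 8 tested members, miR-125b-2-3p among them, had all type H arrays below all type L arrays (46.9% of the 311 miRNAs did) and 1 had all above (31.8%). MiR-99b-3p is counted among the 5 by its sum, while its brightest probe overlapped between the cell types.

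**Figure D2:**
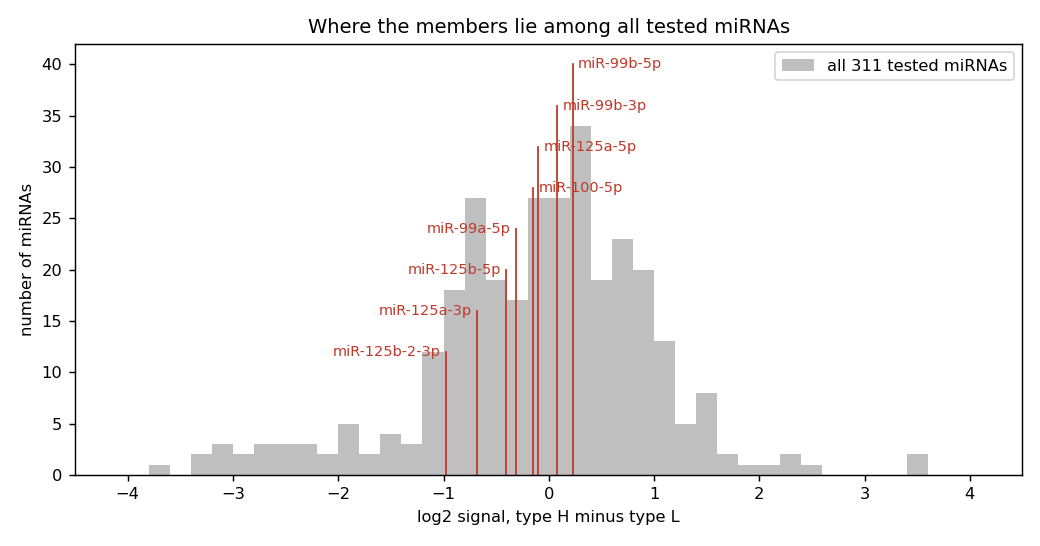
Histogram of the log2 difference (type H minus type L, quantile-normalized; x axis) of the 311 tested miRNAs (y axis, number of miRNAs), with red lines at the 8 tested members; the heights of the red lines only separate the names. The members detected on all 6 arrays run from -0.68 for miR-125a-3p to 0.23 for miR-99b-5p. MiR-125b-2-3p, at -0.97, was not detected in type H ECs, so its place is that of a bound.

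Among all tested changes the members detected on all 6 arrays lay between the 26.4th percentile, for miR-125a-3p, and the 59.8th, for miR-99b-5p. The scaling moved the median of all tested miRNAs, from 0.03 with quantile normalization to -0.27 when each array was scaled to its 75th percentile and to -0.17 with no normalization. Scaling to the 75th percentile called 88.1% of the 311 miRNAs, 56.6% as lower in type H ECs, against 42.1% lower with quantile normalization.

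Relative to the median miRNA, 4 of the 7 members detected on all 6 arrays kept their direction under all 3 scalings. Scaling to the 75th percentile divides each array by a constant. Relative to the median it must therefore give the same values as no normalization, and it is not a separate check. MiR-99b-5p stood 0.20 above the median miRNA with quantile normalization and 0.51 above it with the 75th percentile or without normalization. MiR-99a-5p stood at -0.34, -0.18 and -0.18 relative to the median, and miR-125b-5p at -0.43, -0.17 and -0.17. The passenger arm miR-125a-3p stood lowest of these, at -0.71, -0.84 and -0.84.

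The other 3 changed side. MiR-100-5p was at -0.17 relative to the median with quantile normalization and at 0.05 with either other scaling. MiR-125a-5p went from -0.13 to 0.07 in the same way. For these guide arms the position against the typical miRNA was therefore not settled by the data. The fall of miR-99a-5p, miR-125b-5p and miR-125a-3p and the rise of miR-99b-5p held with and without quantile normalization. MiR-99b-3p was 0.06 above the median with quantile normalization and at -0.23 with the others.

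**Figure D3:**
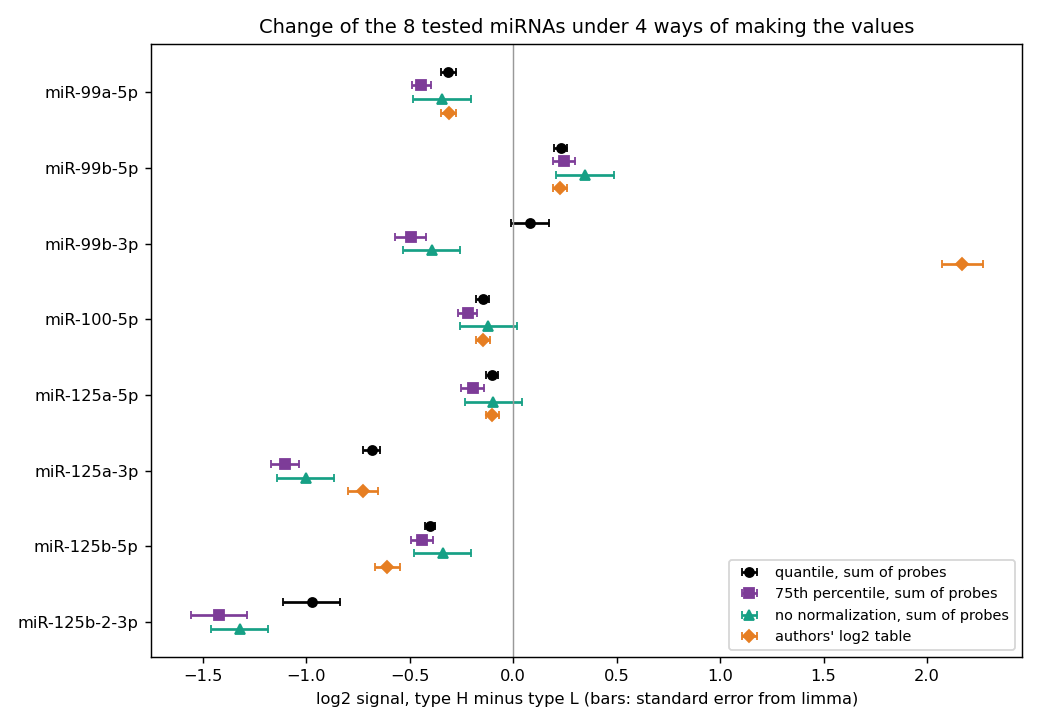
Log2 difference between type H and type L ECs (x axis) of the 8 tested miRNAs (rows) under 3 scalings of the summed probe signal and in the authors' log2 table; points are limma estimates from 3 arrays of each cell type, bars their SE. Without normalization limma gave every miRNA the same SE, 0.14. MiR-125b-2-3p has no point for the authors' table, where the type H arrays are at the floor; miR-99b-3p is spread from -0.49 to 2.17, while miR-99a-5p and miR-99b-5p keep their sides.

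Whether relatives changed by different amounts was tested on their difference within each array, which cancels a scaling factor shared by an array. Quantile normalization acts by level, so its effect on these values is not cancelled. MiR-99a-5p minus miR-100-5p, a pair that differs by 1 base, was -0.46 ± 0.01 in type H ECs and -0.29 ± 0.02 in type L ECs (log2, SD, n = 3), so that miR-99a-5p was lower in type H ECs by a further 0.16. The groups did not overlap, and the exact two-sided permutation p of 0.10 is the smallest that 3 arrays against 3 allow. The change of miR-99a-5p was 0.54 below that of miR-99b-5p, and the change of miR-100-5p was 0.38 below it, each at an exact permutation p of 0.10. MiR-125a-5p changed by 0.30 more towards type H ECs than miR-125b-5p, again at an exact permutation p of 0.10. In all, 7 pairs were compared, and the p adjusted over the 7 was 0.10 for each. How often other pairs of miRNAs part the cell types in this way was not computed. Taken singly, 87.8% of the 311 miRNAs did, so these differences are not read as particular to relatives.

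Within clusters, miR-99b-5p and miR-125a-5p, whose hairpins lie within 692 bases of each other, differed in their change by 0.33 (exact permutation p = 0.10). MiR-100-5p and miR-125b-5p differed by 0.25 (exact permutation p = 0.10). MiR-99a-5p and miR-125b-5p differed by 0.09 with quantile normalization (exact permutation p = 0.10) and by -0.003 with the 75th percentile scaling (exact permutation p = 0.90), so a difference between their changes did not hold up.

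The other arms of the same clusters, those of let-7 and the 3p arms of miR-99a and miR-100, gave little. Of 8 listed partner arms, 3 were detected: let-7a-5p was higher in type H ECs by 0.31 (limma adjusted p = 0.00055), while let-7c-5p at 0.12 (limma adjusted p = 0.073) and let-7e-5p at 0.09 (limma adjusted p = 0.33) did not pass. The call of let-7a-5p did not survive the 75th percentile scaling, where it was -0.03 (limma adjusted p = 0.69). The other 5, the 3p arms of let-7a-2, let-7c-1, let-7e, miR-99a and miR-100, were detected on no array. Let-7a-5p and let-7c-5p also come from hairpins outside these clusters. MiR-351-5p, a further miRNA with the CCCUGAG seed, gave 2.56, 2.39 and 1.97 on the type H arrays and 1.44, 1.41 and 1.64 on the type L arrays, and was higher in type H ECs by 0.81 (limma adjusted p = 0.00015), the opposite direction to miR-125a-5p and miR-125b-5p. These signals lie near the detection floor, and the call was lost with the mean processed signal (0.59, limma adjusted p = 0.085), normexp (0.042, limma adjusted p = 0.051) and a floor of 4, which leaves no difference.

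The guide arms were set against the passenger arms by the difference of the 5p and 3p values within each array, over 30 hairpins with both arms tested. Of these, 76.7% were called by limma, 36.7% with a larger 5p minus 3p difference in type H ECs. For miR-125a the difference was 4.22 ± 0.07 in type H ECs and 3.64 ± 0.04 in type L ECs (log2, SD, n = 3), larger in type H ECs by 0.58 (SE 0.07, limma adjusted p = 0.00017). The passenger arm thus fell further than its guide. With the brightest probe of each arm alone the shift was 0.15 (limma adjusted p = 0.10). The probes of the passenger arm have 13 to 16 bases and those of the guide 18 to 19. Before normalization the median log2 difference between the cell types was -0.65 over 141 probes of up to 14 bases and 0.27 over 90 probes of 19 bases and over, all above 3 times the scanner's error on every array, and the part of probe length in the shift was not tested. For miR-125b-5p against miR-125b-2-3p no shift is given, since the passenger arm was not detected in type H ECs and the guide is made from both hairpins. For miR-99b the shift was 0.15 (SE 0.11, limma adjusted p = 0.28), and both its call and its direction depended on the values used. It was 0.74 with the 75th percentile scaling (limma adjusted p = 0.00011) and -1.95 in the authors' log2 table (limma adjusted p = 6.0e-05).

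The probes of a miRNA share its 3′ end and differ in how far they reach towards the 5′ end. They are shown where the comparison turns on them. Capitals mark the bases that differ between the 19-base probes of miR-99a-5p and miR-100-5p, and between the 14-base probes of miR-125a-3p and miR-125b-2-3p.

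miR-99a-5p probe: cacaagAtcggatctacgg
miR-100-5p probe: cacaagTtcggatctacgg
miR-125a-3p probe: GgCtcccaagaacc
miR-125b-2-3p probe: AgGtcccaagaacc

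No target of a member's probe was found in full in any other of the 1679 mature miRNAs in the RefSeq table, but the miR-99a-5p and miR-100-5p probes differ by 1 base, and how far they read each other's target was not tested. The 4 probes of miR-125a-3p form a ladder in which capitals mark the bases added to the shortest.

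miR-125a-3p probe of 13 bases: ggctcccaagaac
miR-125a-3p probe of 14 bases: ggctcccaagaacC
miR-125a-3p probe of 15 bases: ggctcccaagaacCT
miR-125a-3p probe of 16 bases: ggctcccaagaacCTC

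When each probe was tested on its own, 14 of the members' 22 tested probes, 63.6%, were called by limma, 11 as lower and 3 as higher in type H ECs (75.6% of all 705 probes were called, 37.7% as lower). The 11 include the 14-base probe of miR-125b-2-3p, whose call is partly set by the filter. Along the ladder of miR-125a-3p the fall in type H ECs shrank with length, from -1.15 (limma adjusted p = 0.0019) at 13 bases to -0.95 (limma adjusted p = 0.00077), -0.66 (limma adjusted p = 0.0013) and -0.20 (limma adjusted p = 0.0039) at 16 bases. All 4 called the same direction, but the size of the change depended on the probe. Before normalization the 14-base probe was 2.58 times brighter on average in type L ECs (1.66, 1.68 and 1.15 against 3.83, 3.86 and 3.89), and the 16-base probe 1.42 times (3.80 ± 0.38 against 5.41 ± 0.16, SD, n = 3).

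Guide arms were compared in the same way. For 6 members, the shortest and the longest probe were both above 3 times the scanner's error on all 6 arrays. Before normalization, the shortest probe read lower in type H relative to type L than the longest did in all 6. The log2 gap, shortest minus longest, was -0.87 for miR-125a-3p, -0.26 for miR-99a-5p, -0.16 for miR-125a-5p, -0.13 for miR-100-5p, -0.05 for miR-125b-5p and -0.03 for miR-99b-5p. With quantile normalization over probes it kept this sign in 4 of the 6 and turned for miR-125b-5p and miR-99b-5p. Before normalization, in 5 of the 6, all but miR-99b-5p, every type H array lay below every type L array. Most other miRNAs leaned this way too. Of 169 miRNAs with such a pair of probes, 136 leaned the same way, and in 49.1% all type H arrays lay below all type L arrays, with a median gap of -0.08 over the 169 and -0.14 over the 6 members.

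**Figure D4:**
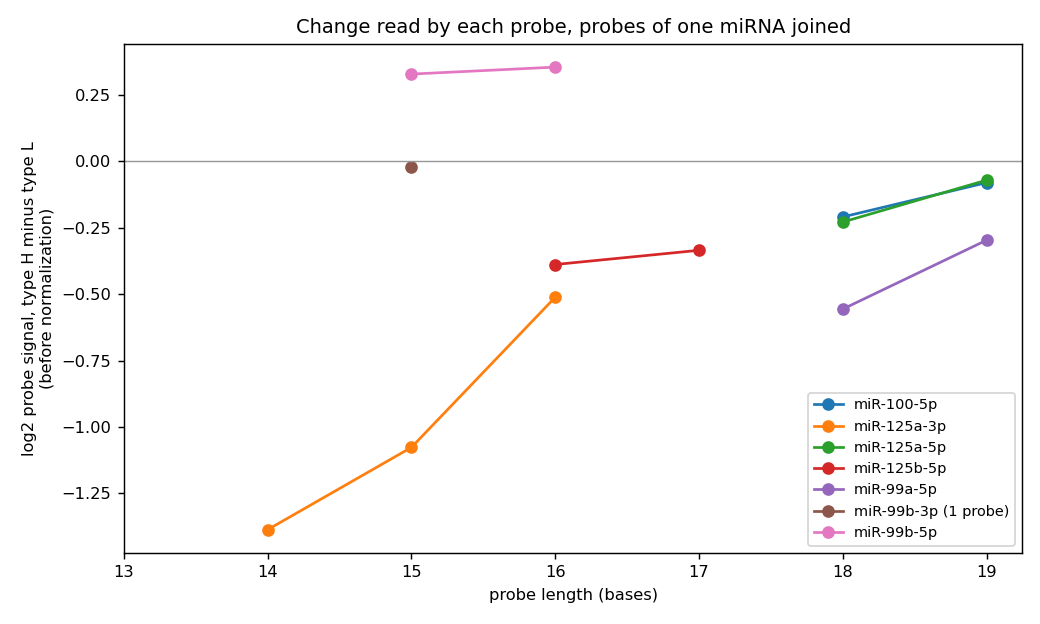
Log2 difference between type H and type L ECs before normalization (y axis, mean of 3 arrays minus mean of 3 arrays) for each member probe above 3 times the scanner's error on all 6 arrays, against probe length in bases (x axis); lines join probes of the same miRNA. Every line rises to the right, most steeply for miR-125a-3p, from -1.39 at 14 bases to -0.51 at 16 bases.

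The smallest changes were called by 1 of their 2 probes. For miR-100-5p the 18-base probe gave -0.11 (limma adjusted p = 0.022) and the brighter 19-base probe 0.05 (limma adjusted p = 0.18). For miR-125a-5p the corresponding values were -0.08 (limma adjusted p = 0.045) and 0.03 (limma adjusted p = 0.40). The larger changes were called by both probes: miR-99a-5p gave -0.47 and -0.26, miR-125b-5p -0.34 and -0.41, and miR-99b-5p 0.50 and 0.36. Probe values were quantile-normalized over probes and sums over miRNAs, so the sizes of the 2 kinds cannot be set against each other. For miR-99b-5p the sum gave 0.23, below both of its probes. Of the 4 probes of miR-125b-2-3p, only the 14-base probe was called, at -0.48 (limma adjusted p = 0.0066). These probes were tested only because type L ECs detected the miRNA, so this call is partly set by the filter and is not read as support. Before normalization the 14-base probe read 0.71, 0.92 and 0.41 on the type H arrays, below the value of 1 used as the floor.

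MiR-99b-3p rested on 1 probe. Its longest probe, of 15 bases, was above 3 times the scanner's error on all 6 arrays, at 2.67 ± 0.26 in type H ECs and 2.71 ± 0.16 in type L ECs (SD, n = 3), so before normalization the arrays of the cell types overlapped on the probe that carried signal. The shorter probes stayed between -0.26 and 1.06 and were above that error on no array. With quantile normalization over probes, the 15-base probe was higher in type H ECs by 0.40 (limma adjusted p = 0.0037).

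The files also give a ready-made total for each miRNA, which for several members is not the sum of the miRNA's own probes. For miR-99b-3p the deposited total was 160.4, 135.2 and 122.2 on the type H arrays and 166.7, 179.6 and 179.0 on the type L arrays. On each array it equalled, within a relative tolerance of 1e-05, the 15-base probe of miR-99b-3p (2.52 to 2.97) plus the whole total of miR-99a-5p. A comparison of these totals gave a fall of 0.42 on the log2 scale (limma adjusted p = 0.0008). The authors' log2 table, on the other hand, held values of 1.71 to 2.03 on the type H arrays and -0.37 to -0.22 on the type L arrays for miR-99b-3p, a difference of 2.17 (limma adjusted p = 1.9e-05). The direction of miR-99b-3p thus differed between measures made from the same arrays, and none of them is given as its change.

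The same was seen on single arrays for other passenger arms. MiR-125b-2-3p had a deposited total of 188.0 on type L array 2, against 4.42 and 3.99 on the other type L arrays, and this total held the 183.9 of miR-125a-5p. MiR-125a-3p had a deposited total of 13.5 on type H array 3, of which 7.33 matched miR-1249-3p. With these totals the falls of miR-125a-3p (limma adjusted p = 0.35) and miR-125b-2-3p (limma adjusted p = 0.20) no longer passed. The 5p members' deposited totals equalled the sums of their own probes on all arrays.

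**Figure D5:**
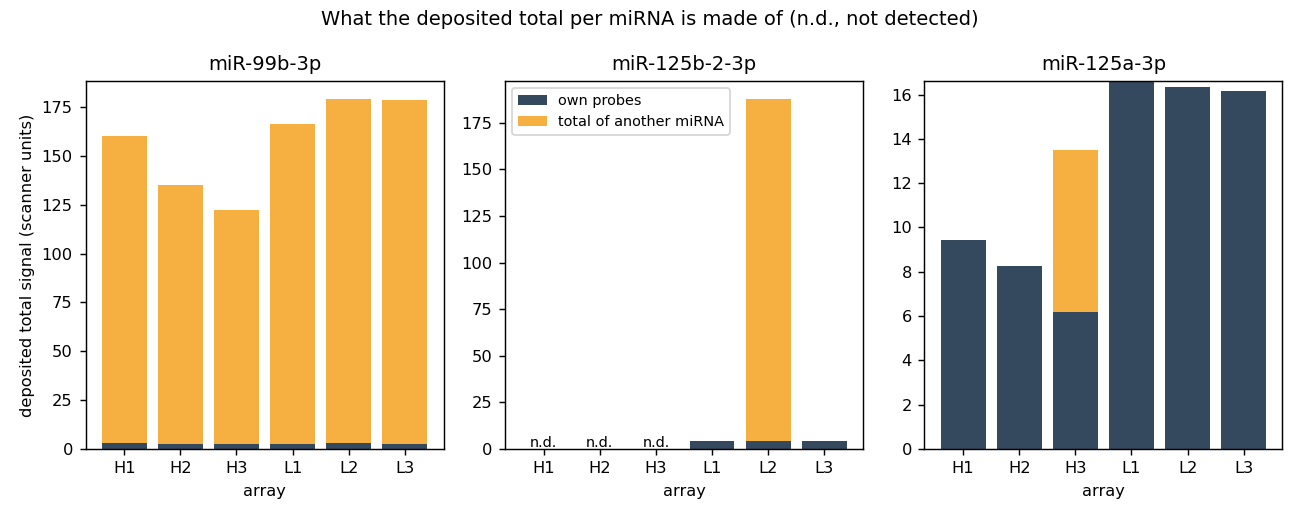
Deposited total signal (y axis, scanner units, linear from 0) of miR-99b-3p, miR-125b-2-3p and miR-125a-3p on each of the 6 arrays (x axis; H1 to H3 type H, L1 to L3 type L), split into the part given by the miRNA's own probes (dark) and the part equal to another miRNA's total (orange). Nearly all of the miR-99b-3p total is another miRNA's on every array, while for miR-125b-2-3p and miR-125a-3p only type L array 2 and type H array 3 are concerned.

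The miRNA outside these families and clusters whose normalized values ran closest to a guide arm over the 6 arrays was found by the root mean square difference of centred log2 values. It was miR-6912-5p for miR-99a-5p (0.05), let-7g-5p for miR-100-5p (0.05), miR-25-3p for miR-99b-5p (0.03), miR-34a-5p for miR-125a-5p (0.04) and miR-7042-5p for miR-125b-5p (0.04). These are descriptions over 6 arrays of 2 cell types.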

How the data were processed

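Agilent 1-colour arrays measured the miRNAs of 3 type H and 3 type L samples. The authors extracted background-subtracted probe intensities with Feature Extraction 10.7.1.1 and deposited them without normalization between arrays. The authors also deposited a log2 table, described in their methods as quantile-normalized; its values rise with the signal across detected miRNAs (median correlation over arrays 0.98), though single miRNAs differ in the direction of their change, and its floor for undetected miRNAs stays unexplained. The labels describe labelled cRNA from a linear amplification kit, the methods Cy3-labelled small RNAs, and the design number in the file headers is not that of the methods.

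For each miRNA the totals of its probes were summed, quantile-normalized over 1881 miRNAs, floored at 1 and put on the log2 scale. MiRNAs detected on every array of either cell type were kept. The comparison used limma 3.58.1 (lmFit, eBayes) in R 4.3.3 with Benjamini-Hochberg adjustment, checked on simulated data. The methods name no array test, and the t-test of their statistics section was an alternative. Differences between members were tested by exact two-sided permutation over arrays. P-values measure the spread between these arrays, which may be partly technical. In limma each miRNA's variance is also drawn towards a value shared by all miRNAs. For miR-125b-5p, with a normalized SD of 0 in both cell types, the SE of 0.02 rests on that shared value alone. Without normalization every miRNA had the same SE, 0.14, so those p-values do not measure each miRNA's own spread. Named miRNAs were the members, their cluster partners, miR-351-5p, some listed marker miRNAs and, for each detected 5p member, the miRNA nearest in pattern. The members and lists were chosen with earlier results of these data known, and the comparison of short and long probes was added after seeing the data.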

Additional observations from a re-analysis of the deposited data

How the results depend on the processing

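Alternatives covered the scaling, the signal, the floor, the filter, the test, array weights, a block on the replicate number, and leaving out each array. MiR-99a-5p, miR-99b-5p and miR-125b-5p kept their direction and call in all 20. How many of the 311 miRNAs did so was not computed, and 86.8% of them were called in the main fit, so this is not read as particular to these members. The floor of 4, the filters, the t-test and the replicate block left miR-99a-5p at -0.31 and miR-99b-5p at 0.23. These do not check the size. For miR-125b-5p many of the 20 settings could not move the value, since quantile normalization ties it by rank. It stayed at -0.40 whichever array was left out, so those fits do not check it. In the t-test its SE was 0, so that call carries no weight. With the authors' log2 table, the brightest probe alone, or only probes above 3 times their error (chosen after seeing the data), 2 members were called higher in place of 1, the second being miR-99b-3p. Without a filter 413 miRNAs were called in place of 270, and 249 arm pairs in place of 23. With no filter most of the variances are 0, so these counts are not reliable. With only miRNAs detected on all 6 arrays 15 arm pairs were called, and with a floor of 4 the members' called probes dropped from 14 to 8. With 1 array left out, 6 to 7 members were called, 5 to 6 lower and 1 to 1 higher, with 260 to 266 of all miRNAs, 20 to 23 arm pairs and 12 to 14 member probes.

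Signs turned for miR-99b-3p with the 75th percentile (-0.49), no normalization (-0.39), deposited totals (-0.42) and normexp (-0.034). They turned for let-7a-5p with the 75th percentile (-0.03), normexp (-0.031) and the brightest probe (-0.16), and for let-7e-5p with deposited totals (-0.0093) and the authors' table (-0.070). The arm difference of miR-99b turned with the authors' table (-1.95), the brightest probe (-0.13) and probes above 3 times their error (-0.33). With no normalization this arm difference was 0.74, with deposited totals 0.66, with normexp 0.32 and with a floor of 4 0.22, all called. The difference of miR-99a-5p and miR-125b-5p was -0.0033 with the 75th percentile and with no normalization. The cause was not tested. MiR-125a-5p also lost its call with no normalization, the mean processed signal and the brightest probe, and miR-100-5p with no normalization and the brightest probe. The arm difference of miR-125a lost its call with deposited totals and the brightest probe.

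Deviations of arrays with the same replicate number had correlations of -0.0055, -0.025 and 0.12, which gave no sign of pairing by number. Correlations between arrays of different number were not set beside them, so whether the samples were paired is not settled. With the replicate block 6 members were called in place of 7, 5 lower and 1 higher, since miR-125a-5p had a limma adjusted p of 0.062. It left 262 miRNAs, 21 arm pairs and 13 member probes called.

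Precision is limited by 3 arrays of each cell type, by slide and cell type lying together, and, for the passenger arms, by signals close to the detection floor.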
